A study of Mus musculus with 36 samples.

Results

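Gdnf-Ret signalling was followed through 9 genes of 22761 in the table, taken by symbol as the ligand, its receptors and their targets at the bud tip, with earlier results of these data known. They are the ligand Gdnf, its receptor genes Ret and Gfra1, the target transcription factor genes Etv4 and Etv5, and the inhibitor genes Spry1, Spry2, Spry4 and Dusp6. RNA of sorted mouse kidney progenitors was sequenced in 36 libraries, 4 in each of 9 groups. Ex-fetu cells came from CD1 mice at embryonic day (E) 11.5 or E12.5 and were nephron progenitors (NP), stromal progenitors (SP) or ureteric bud cells (UB). Each ex-fetu sample combined the kidneys of 1 litter, and each sample from embryonic stem cells was 1 differentiation run. The embryonic stem cell (ESC)-derived groups had no embryonic day. Induced nephron and stromal progenitors (iNP and iSP) were made from E14 mESC, and the engineered ureteric bud cells (eUB, labelled iUB) from a line that the labels call Sox9-mCherry-mESC and the study elsewhere Sox8-mCherry. Origin, strain, line and culture therefore cannot be told apart when ESC-derived and ex-fetu cells are compared, nor can cell type, line and medium when eUB are compared with iNP or iSP.

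The sort bears on these genes. NP and iNP were high for ITGA8 and low for PDGFRA, SP and iSP the reverse, and both were negative for CD31, EpCAM and RET. Ex-fetu UB were positive for RET and EpCAM, whereas eUB were sorted on EpCAM and mCherry. Ret is therefore given as a description wherever UB or eUB are compared with another kind of cell or with each other, and at most 8 members are counted there. Between the ages of UB, both sorted on RET, all 9 are counted. Human GDNF protein was in the medium of the last steps of eUB culture, and FGF9 with CHIR99021 in the last medium of iNP and iSP. The labels of the UB libraries disagree on age, since those titled E11.5 name E12.5 as their source and the reverse. The titles were used, so the order of the UB ages is not secure.

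In the early kidney the mesenchyme around the ureteric bud secretes GDNF, and cells of the bud, above all at its tips, carry the receptor tyrosine kinase RET and its co-receptor GFRA1. Bound GDNF activates RET, which signals through RAS and ERK among other routes and raises Etv4 and Etv5, genes that tips need to branch. Sprouty proteins and the ERK phosphatase DUSP6 are made in response to such signals and dampen them. The same targets also answer to FGF receptors, so in mesenchyme they are no readout of RET alone.

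The 3 inhibitor genes below, which rose together in iNP, are shown by the 250 bases before their start, on the strand of the gene, from RefSeq (GRCm38.p6). Such an entry was found for 6 of the 9 members. Capitals mark GGAAG or, on the other strand, CTTCC, the core that ETS factors such as ETV4 and ETV5 bind. These letters are common: 64.1% of 32851 promoter windows of this length hold them. The Dusp6 window (chr10:99262981-99263230, plus strand) held 2 matches, and those of Spry1 (chr3:37639697-37639946, plus strand) and Spry2 (chr14:105896820-105897069, minus strand) held 0. The longer CCGGAA, found in 12% of windows, was in none of these.
Dusp6: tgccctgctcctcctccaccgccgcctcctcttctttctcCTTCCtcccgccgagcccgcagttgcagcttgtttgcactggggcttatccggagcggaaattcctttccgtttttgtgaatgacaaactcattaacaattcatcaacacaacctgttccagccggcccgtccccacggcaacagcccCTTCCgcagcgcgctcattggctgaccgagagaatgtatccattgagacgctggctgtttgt
Spry1: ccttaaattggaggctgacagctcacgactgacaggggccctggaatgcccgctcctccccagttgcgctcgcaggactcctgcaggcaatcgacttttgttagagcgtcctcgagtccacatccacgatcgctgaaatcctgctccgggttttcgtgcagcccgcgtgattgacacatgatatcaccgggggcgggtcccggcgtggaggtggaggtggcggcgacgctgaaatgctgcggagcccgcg
Spry2: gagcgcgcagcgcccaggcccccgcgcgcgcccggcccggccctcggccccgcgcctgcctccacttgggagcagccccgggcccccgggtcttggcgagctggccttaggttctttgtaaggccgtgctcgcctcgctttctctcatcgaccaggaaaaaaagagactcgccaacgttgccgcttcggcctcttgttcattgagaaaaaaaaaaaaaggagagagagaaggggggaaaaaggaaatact

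Libraries held 13.0 to 52.5 M reads in genes (median 27.4), so 3 reads correspond to 0.0605 to 0.223 normalised CPM (counts scaled to library size, the unit of every level here). In sum, markers fitted the labels: 7 UB markers summed to 2160 to 4552 in the UB and eUB libraries and to 14.7 to 144 elsewhere. The 7 NP markers were highest in NP, with 629 to 1045 in iNP against 1596 to 1864 in E11.5 NP. The 7 SP markers summed to 1505 to 2762 in SP and iSP and to at most 797 elsewhere. Epcam, Itga8 and Pdgfra, which are among these markers, were also used in the sort. Single markers could differ: Cited1 of the NP list and Foxd1 of the SP list were called higher in eUB than in iNP, the others of both lists lower. Replicate 1 had the lowest mean correlation with its group in each E12.5 cell type, at 0.965 in UB (next lowest 0.985), 0.971 in SP (0.984) and, by little, 0.974 in NP (0.976). The same held of iNP replicate 2 (0.974, next 0.989), eUB replicate 1 (0.98, next 0.989) and E11.5 SP replicate 4 (0.979, next 0.985). In E12.5 UB replicate 1 held 497 of summed NP markers, 310 of SP markers and 78.6 of endothelial markers, while the group's medians were 75.8, 23.1 and 5.05. Macrophage markers summed to 36.1 to 84.4 in ex-fetu UB and to at most 1.75 in every other group, eUB included. Erythroid markers reached 2755 in SP and were at most 0.141 in ESC-derived cells. What part these play in the values below was not tested. In sorted bulk samples fewer expressing cells and less RNA per cell cannot be told apart. Tests are by limma on log2(normalised CPM + 1), with p adjusted over all genes tested and 0.05 as threshold. This scale understates the change of low genes.

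Gdnf (ENSMUSG00000022144, GRCm38 chromosome 15, 7810846 to 7837575) was a gene of both mesenchymal progenitors. It was at 71.7 ± 12.6 (SD, n = 4) in E11.5 NP, 79.8 ± 14.9 in E12.5 NP and 47.1 ± 11.2 in iNP. In SP it was at 40.8 ± 5.24 at E11.5 and 79.9 ± 11.3 at E12.5, but at 6.70 ± 1.48 in iSP. Ex-fetu SP thus held several times the ligand transcript of their ESC-derived counterparts, and the libraries did not overlap: the iSP libraries read 5.41, 8.13, 7.83 and 5.44, and the E11.5 SP libraries 37.2, 46.3, 35.5 and 44.1. The difference was -2.45 (SE 0.15, limma adjusted p = 1.17e-06) against E11.5 SP and -3.40 (SE 0.16, adjusted p = 2.49e-07) against E12.5 SP. In iNP, where libraries read 45.5, 32.9, 50.1 and 59.9, Gdnf was lower than in E11.5 NP by a smaller margin (-0.61, SE 0.19, adjusted p = 0.0152), with overlapping libraries. The lowest value is that of replicate 2, without which the difference was -0.45 (adjusted p = 0.0125). A fit that shares its spread over all 36 libraries did not call this difference (adjusted p = 0.238), nor that against E12.5 NP (-0.76, adjusted p = 0.148). The fall in iSP exceeded that in iNP, with a difference of changes of 1.84 (SE 0.25, adjusted p = 3.59e-05).

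Gdnf was low in bud cells, at 1.39, 2.33, 0.680 and 1.81 in E11.5 UB and 0.0743, 0.390, 0.301 and 0.248 in eUB, too low to pass the filter for a test against E11.5 UB. In E12.5 UB it read 22.9 in replicate 1 and 0.710, 0.686 and 1.304 in the other libraries. The high library is the one with NP and SP markers. The E12.5 UB mean of 6.40 therefore rests on it, and without it the mean was 0.900 ± 0.350 (n = 3). Between ages Gdnf rose in SP, by 0.95 (SE 0.14, adjusted p = 0.00655) with no overlap, and in NP it did not pass the test (0.15, SE 0.17, adjusted p = 0.641). The fit over all libraries did not call the SP change (adjusted p = 0.137).

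Ret (ENSMUSG00000030110, chromosome 6, 118151745 to 118197718), the receptor, read 369, 361, 363 and 362 in E11.5 UB and 489, 498, 485 and 419.9 in eUB. All eUB libraries were above all ex-fetu ones, although only the ex-fetu cells had been sorted for RET protein. In E12.5 UB it read 266, 359.5, 395 and 329, with the lowest value in replicate 1. Against the bud it was low in mesenchyme, where the sort had removed RET-positive cells.

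Within mesenchyme Ret was not uniform. E11.5 SP held 29.1, 20.9, 22.0 and 6.22, E11.5 NP 5.65, 3.89, 5.71 and 2.05, and iNP 10.4, 6.43, 7.56 and 11.04. In iSP it was nearly silent, at 0.193, 1.07, 0.332 and 0.304. Against E11.5 SP this was a fall of 3.66 on the log2 scale (SE 0.40, adjusted p = 3.39e-05), and against E12.5 SP a fall of 1.88 (SE 0.20, adjusted p = 3.98e-05). In iNP it rose by 0.93 (SE 0.26, adjusted p = 0.0114) against E11.5 NP without overlap. Quantile normalisation ended that call (0.51, adjusted p = 0.108). In iNP the summed UB markers, at 93.4 to 126, were also above the 38.2 to 48.4 of E11.5 NP. In iSP they were at 33.4 to 41.1, below the 52.5 to 144 of E11.5 SP, as was Ret. Against E12.5 SP, at 14.7 to 31.4, the UB markers were higher in iSP, whereas Ret was lower. In E11.5 SP Isl1, a gene of neurons and of mesenchyme around the cloaca, read 94.7, 74.1, 19.3 and 4.73 in the order given above, and UB markers summed to 96.2, 58.8, 144 and 52.5. Both were lowest in replicate 4, as was Ret. Isl1 was highest in replicate 1, as was Ret, and UB markers in replicate 3, while replicates 2 and 3 differed little in Ret. Isl1 is 1 of 10 neural markers, and the others ran against Ret, with sums of 16.2, 18.2, 23.04 and 24.2. The part of these genes in the Ret level was not tested.

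Gfra1 (ENSMUSG00000025089, chromosome 19, 58235604 to 58455909), the co-receptor that holds GDNF, was high in the bud and also plain in NP. It read 437, 395, 449 and 441 in E11.5 UB and 473, 418, 424 and 409 in eUB, and these libraries overlapped. The change was 0.00 (SE 0.08, adjusted p = 0.996), which does not show that the cells are alike. Ex-fetu NP held 139 ± 18.0 at E11.5 and 185 ± 34.5 at E12.5, and iNP 74.1, 43.2, 78.4 and 84.8. Gfra1 was thus lower in iNP than in NP of either age, by 1.01 (SE 0.20, adjusted p = 0.00153) and 1.41 (SE 0.22, adjusted p = 0.000652), with no overlap. Without iNP replicate 2, the lowest, the change against E11.5 NP was -0.80 (adjusted p = 6.54e-05). In iSP it was at 9.79 ± 0.986, lower than the 21.4 ± 7.55 of E11.5 SP (-1.001, SE 0.21, adjusted p = 0.00198) and not called against E12.5 SP (-0.07, SE 0.26, adjusted p = 0.839). The change in UB differed from that in NP by 1.01 (SE 0.23, adjusted p = 0.00158).

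**Figure D1:**
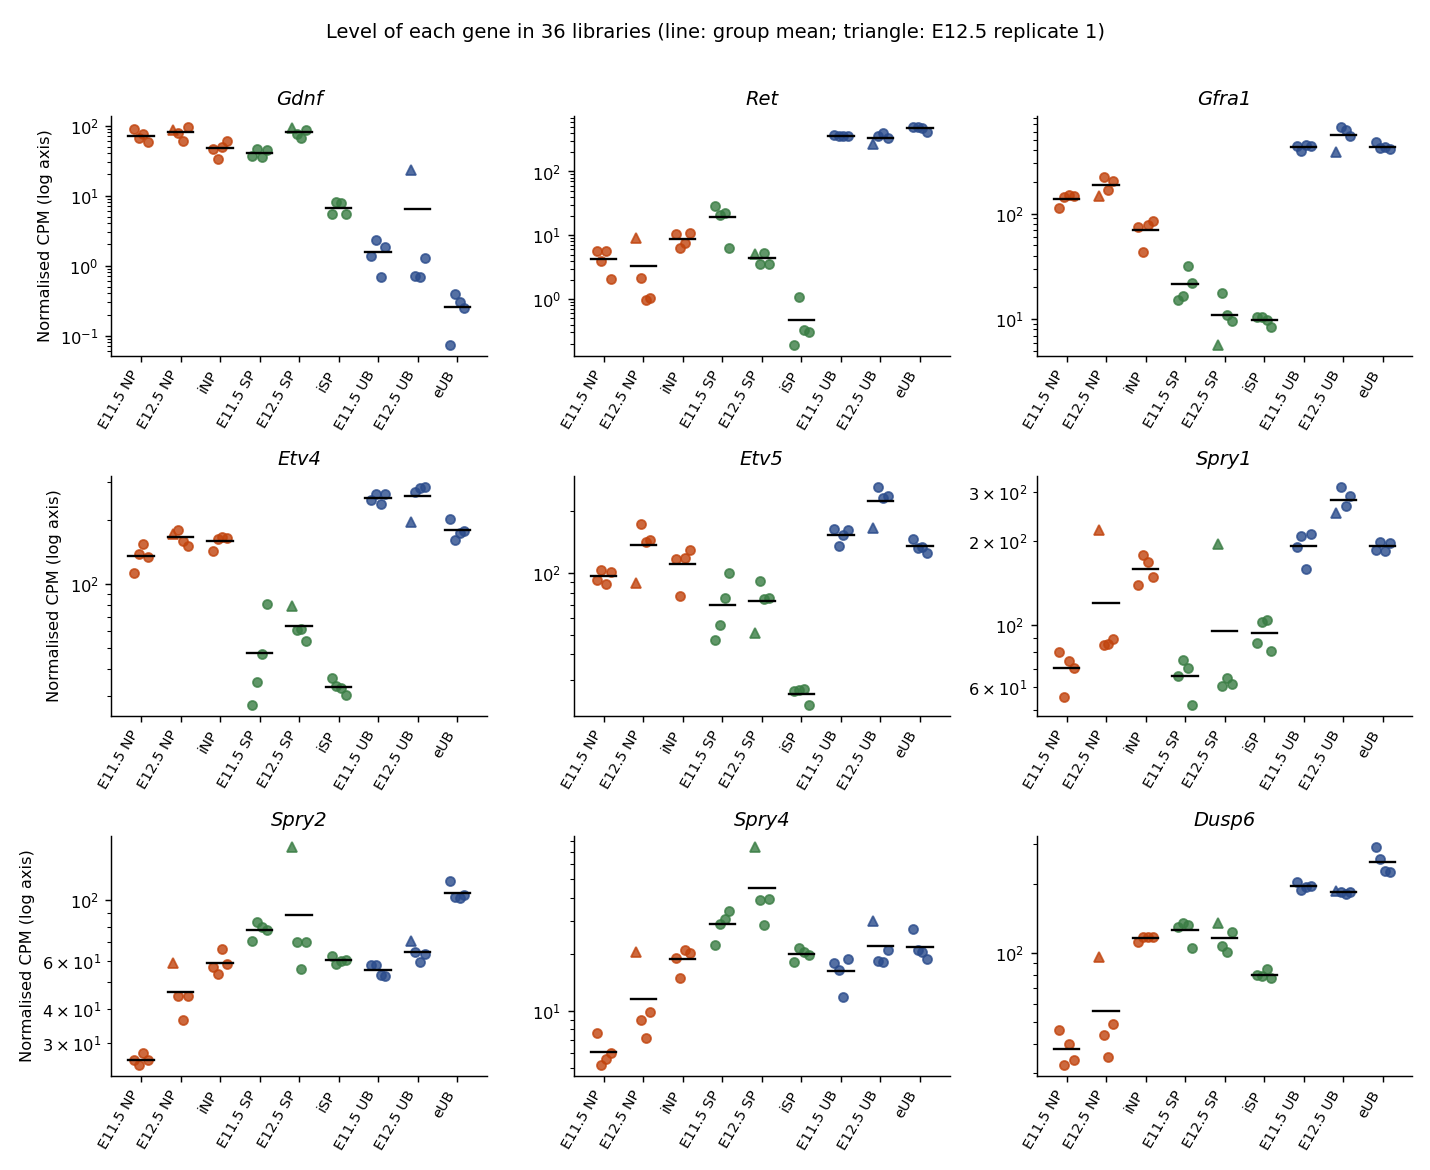
Normalised CPM (log axis, a scale for each gene) of the 9 genes in 36 libraries; points are libraries, lines the means of 4, and triangles replicate 1 of the E12.5 groups. Gdnf is high in NP and SP and at or under 2.33 in bud libraries other than E12.5 UB replicate 1 at 22.9, while Ret and Gfra1 are highest in the bud.

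Etv4 (ENSMUSG00000017724, chromosome 11, 101769742 to 101785371) and Etv5 (ENSMUSG00000013089, chromosome 16, 22381309 to 22439719), ETS factors, were highest in ex-fetu bud and lowest in iSP. Etv4 read 247, 263, 237 and 265 in E11.5 UB and 202, 161, 174 and 177 in eUB. The eUB libraries lay below those of E11.5 UB without overlap, and the change of -0.50 (SE 0.08, adjusted p = 0.000498) passed the test. Etv5 was at 154 ± 12.8 in E11.5 UB and 135 ± 9.22 in eUB with overlapping libraries (-0.19, SE 0.08, adjusted p = 0.0744). That difference was called without E11.5 UB replicate 2 (-0.24, adjusted p = 0.0283) and without eUB replicate 1 (-0.23, adjusted p = 0.00993), with upper-quartile scaling (-0.25, adjusted p = 0.0422) and by DESeq2 (-0.23, adjusted p = 0.0392). Against E12.5 UB both were lower in eUB, Etv5 by 0.72 (SE 0.14, adjusted p = 0.00292) and Etv4 by 0.52 (SE 0.13, adjusted p = 0.0126).

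In NP neither ETS gene passed the test. Etv4 was at 135 ± 17.2 in E11.5 NP and 159 ± 11.2 in iNP (0.24, SE 0.11, adjusted p = 0.0784), and Etv5 at 96.2 ± 7.08 and 111 ± 22.7 (0.18, SE 0.15, adjusted p = 0.331). Etv4 was called without E11.5 NP replicate 3 (0.31, adjusted p = 0.0422), Etv5 without iNP replicate 2 (0.34, adjusted p = 0.0019), and both with quantile normalisation (0.50 and 0.41). In iSP Etv5 read 26.4, 26.9, 27.0 and 22.7 against 47.2, 55.4, 75.8 and 100.1 in E11.5 SP, a fall of 1.34 (SE 0.21, adjusted p = 0.000296). Etv4 in iSP, at 33.1 ± 2.56, lay within the wide range of E11.5 SP, whose libraries read 27.2, 34.8, 47.0 and 80.96 (-0.39, SE 0.28, adjusted p = 0.234). In E11.5 SP the library with the most Etv4 and Etv5 had the least Ret. Against E12.5 SP, where the spread was smaller, Etv4 fell by 0.92 (SE 0.12, adjusted p = 0.000155).

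The Sprouty genes and Dusp6 were the members that changed most in iNP against E11.5 NP. Dusp6 (ENSMUSG00000019960, chromosome 10, 99263231 to 99267489), which encodes a phosphatase of ERK, read 46.2, 32.4, 39.8 and 34.0 in E11.5 NP and 112, 117, 117 and 118 in iNP. The rise was 1.59 (SE 0.12, adjusted p = 2.77e-06). Spry4 (ENSMUSG00000024427, chromosome 18) read 7.64, 5.17, 5.54 and 5.95 in E11.5 NP and 19.0, 14.95, 21.1 and 20.3 in iNP, a rise of 1.49 (SE 0.15, adjusted p = 1.91e-05). Spry1 (ENSMUSG00000037211, chromosome 3, 37639947 to 37644598) rose by 1.176 (SE 0.13, adjusted p = 3.87e-05), from 70.1 ± 10.7 to 159 ± 17.6. Spry2 (ENSMUSG00000022114, chromosome 14, 105891947 to 105896819) rose by 1.15 (SE 0.09, adjusted p = 5.58e-06), from 26.02 ± 1.09 to 58.9 ± 5.28. All 4 inhibitors were higher in each iNP library than in any E11.5 NP library, where 62.4% of 14064 genes had libraries that did not overlap in either direction. The ETS genes did not pass the test there, and Gdnf and Gfra1 fell. In the same iNP libraries summed endothelial markers were at 43.1 to 72.9 and neural markers at 76.7 to 108, against 8.24 to 24.1 and 27.6 to 49.3 in E11.5 NP, and their part in the rise was not tested. Of the 9 members 7 were called in this comparison, 5 higher and 2 lower, where 64.7% of all genes tested were called.

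Against E12.5 NP the same inhibitors gave less clear values, and for the Sprouty genes the calls turned on the libraries and settings used. Dusp6 passed the test (1.14, SE 0.26, adjusted p = 0.00555), whereas Spry1 (0.53, adjusted p = 0.154), Spry2 (0.36, adjusted p = 0.0879) and Spry4 (0.74, adjusted p = 0.0512) did not. In E12.5 NP replicate 1 Spry1 was at 219 and Dusp6 at 95.8, against 85.3 to 89.5 and 35.0 to 48.9 in the other replicates. Without it all 4 were called, at 0.86 for Spry1 (adjusted p = 0.000645), 0.49 for Spry2 (adjusted p = 0.0156), 1.04 for Spry4 (adjusted p = 0.00118) and 1.44 for Dusp6 (adjusted p = 6.07e-05). With that library kept, Spry4 was also called without iNP replicate 2 (0.85, adjusted p = 0.0484), in the fit over all 36 libraries (adjusted p = 0.00837), with upper-quartile scaling (adjusted p = 0.0458) and with the replicate block (adjusted p = 0.0466), and Spry2 with quantile normalisation (0.45, adjusted p = 0.0437). The members called were 4 of 9 with the library and 7 without it, where 44.3% of all genes were called with it and 43.4% without it. Ret, at 1.53 (adjusted p = 0.0214), was among the 4, and was not called without E12.5 NP replicate 3 (1.28, adjusted p = 0.0631) or replicate 4 (1.29, adjusted p = 0.062), or without iNP replicate 1 (1.45, adjusted p = 0.0586) or replicate 4 (1.43, adjusted p = 0.0567). It was not called with quantile normalisation (adjusted p = 0.0612), edgeR (1.39, adjusted p = 0.11) or DESeq2 (1.33, adjusted p = 0.149) either.

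In the bud the inhibitors split. Spry2 read 57.7, 57.8, 53.1 and 52.5 in E11.5 UB and 117, 103, 102 and 104 in eUB, the clearest change of any member counted there (0.93, SE 0.07, adjusted p = 4.04e-06). Dusp6 was higher in eUB, at 249.7 ± 30.2 against 196 ± 6.81 (0.34, SE 0.09, adjusted p = 0.00748), a call that the fit over all 36 libraries did not make (adjusted p = 0.0846). Spry1 was at 192 ± 7.52 in eUB and 193 ± 23.9 in E11.5 UB (0.00, SE 0.09, adjusted p = 0.985). Spry4 was just called (0.41, SE 0.16, adjusted p = 0.0432), its nearest libraries at 18.9 in both groups. It was not called without E11.5 UB replicate 1 (0.46, adjusted p = 0.0518), 2 (0.42, adjusted p = 0.075) or 3 (0.28, adjusted p = 0.0992), nor without eUB replicate 1 (0.31, adjusted p = 0.0517), 2 (0.42, adjusted p = 0.0751) or 3 (0.44, adjusted p = 0.0592). Nor was it called with no filter (adjusted p = 0.0578), upper-quartile scaling (0.35, adjusted p = 0.0939), quantile normalisation (0.22, adjusted p = 0.287), the fit over all 36 libraries (adjusted p = 0.149), edgeR (0.39, adjusted p = 0.0612) or DESeq2 (0.39, adjusted p = 0.0507).

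Of the 7 members tested, without Ret and Gdnf, 4 were called in eUB against E11.5 UB, 3 higher and 1 lower, where 60.5% of all genes were called. Egr1 and Fos, immediate early genes that respond to ERK, were higher in the same eUB libraries. Egr1 was at 1636 ± 367 in eUB and 328 ± 74.8 in E11.5 UB (2.31, SE 0.21, adjusted p = 8.9e-06), and Fos at 562 ± 87.1 and 70.8 ± 16.8 (2.99, SE 0.18, adjusted p = 7.45e-07). Their part in the Spry2 level was not tested. Against E12.5 UB, where Gdnf again did not pass the filter, 5 of 7 members tested were called, Spry2 and Dusp6 higher and Etv4, Etv5 and Spry1 lower, where 44.4% of genes were called. The fit over all 36 libraries did not call Spry1 (-0.54, adjusted p = 0.0859). Without E12.5 UB replicate 1 Gfra1 joined those lower in eUB (-0.50, adjusted p = 0.00284 against -0.33, adjusted p = 0.131), where 51.5% of genes were called.

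In iSP the direction was the other way. Dusp6 fell by 0.63 (SE 0.09, adjusted p = 0.000239), from 126 ± 14.1 in E11.5 SP to 80.3 ± 3.30. Spry4 fell by 0.50 (SE 0.13, adjusted p = 0.00639) and Spry2 by 0.37 (SE 0.07, adjusted p = 0.00168), and the libraries of these genes did not overlap. Spry1 alone of the 4 rose, from 65.7 ± 9.94 to 93.8 ± 11.8 (0.51, SE 0.13, adjusted p = 0.00638). The fit over all 36 libraries did not call the 3 Sprouty genes (adjusted p = 0.0595 to 0.0831). In all, 8 of 9 members were called in iSP against E11.5 SP, 1 higher and 7 lower, where 67.6% of genes were called. In these iSP libraries endothelial markers summed to 30.3 to 47.1, against 14.6 to 37.3 in E11.5 SP. The 10 neural markers summed to 59.6 to 86.7 against 28.9 to 110.9, and without Isl1 to 58.3 to 85.9 against 16.2 to 24.2. Of 4 neural markers tested, 1 (Stmn2) was called higher and 2 lower, with Isl1 the largest fall, at the same background. The part of these markers in the changes was not tested. Against E12.5 SP 6 members were called, all lower, at a background of 62.1%, and Spry2 too in the fit over all 36 libraries (-0.42, adjusted p = 0.032). Spry1 was not among them (0.16, adjusted p = 0.692) until E12.5 SP replicate 1 was left out (0.57, adjusted p = 0.000441, with 69.9% of genes called). Egr1 was higher in iSP than in E11.5 SP (539 ± 85.8 against 338.5 ± 63.15, adjusted p = 0.00314), while Spry2 was lower there.

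**Figure D2:**
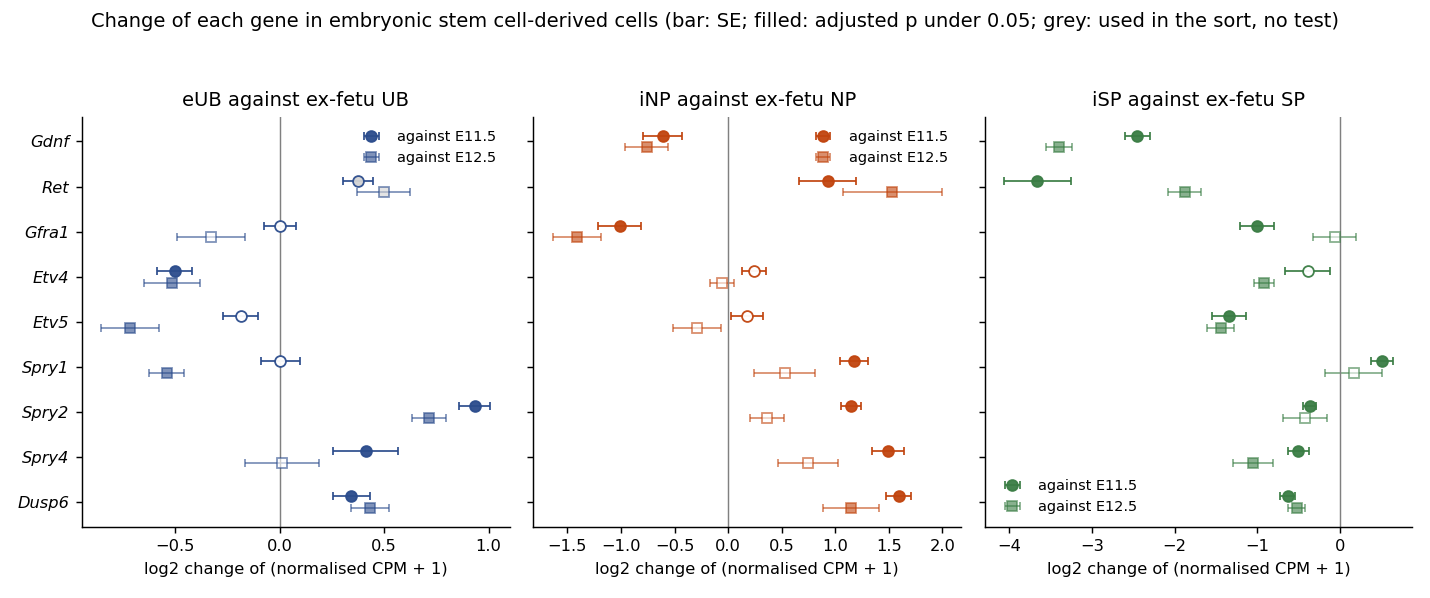
Change on the log2(normalised CPM + 1) scale of each member in eUB, iNP and iSP against E11.5 cells (circles) and E12.5 cells (squares) with SE bars and a scale of its own in each panel; filled symbols passed the test, and grey Ret was part of the UB sort. The 4 inhibitors lie at 1.15 to 1.59 in iNP against E11.5, whereas 3 of them lie below 0 in iSP.

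Whether these changes differed between cell types was tested directly. The change from E11.5 to ESC-derived cells was called as more positive in NP than in SP for 7 of 9 members, where 29.3% of genes were called. Gfra1 (-0.01, SE 0.31, adjusted p = 0.984) and Etv4 (0.63, SE 0.32, adjusted p = 0.15) were not called. The difference was 2.22 for Dusp6 (SE 0.15, adjusted p = 2.04e-08), 1.99 for Spry4 (SE 0.20, adjusted p = 1.46e-06), 1.52 for Etv5 (SE 0.27, adjusted p = 0.000421) and 1.51 for Spry2 (SE 0.11, adjusted p = 5.56e-08). Between UB and NP 5 of 8 members differed, at a background of 47.1%. Dusp6 (-1.25, SE 0.15, adjusted p = 3.29e-06), Spry1 (-1.17, SE 0.17, adjusted p = 2.33e-05), Spry4 (-1.08, SE 0.22, adjusted p = 0.000838) and Etv4 (-0.74, SE 0.14, adjusted p = 0.00032) had the lower change in UB, and Gfra1, which fell in iNP and was at 0.00 in eUB, the higher. Spry2 was not called there (-0.21, SE 0.11, adjusted p = 0.132), and it rose in both. Between UB and SP 7 of 8 members differed, at a background of 47.4%, with 6 more positive in UB and Spry1 more negative. That of Gdnf rested on the pseudocount (1.46, adjusted p = 0.000277, against 0.40, adjusted p = 0.515, with 0.1 in place of 1). These differences share groups and are not independent of each other. With E12.5 in place of E11.5 cells, whose replicate 1 libraries are described above, 2 and 4 members were called in the contrasts of UB with NP and with SP, at backgrounds of 30% and 42.2%. In that of NP with SP 7 were called at a background of 23.8%, but Gfra1 (-1.35, adjusted p = 0.0123) and Etv4 (0.86, adjusted p = 0.000668) were gained and Spry1 (0.36, adjusted p = 0.663) and Spry2 (0.79, adjusted p = 0.0981) lost.

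In ex-fetu cells at E11.5 the pathway separated the 3 cell types. All 8 members counted differed between UB and NP, 7 of them higher in UB, where 60.2% of genes were called. The largest, apart from Gdnf, was Dusp6 (2.34, SE 0.10, adjusted p = 8.41e-10). Against SP all 8 differed too, 5 higher in UB, at a background of 53.6%. The 3 that were higher in SP were Gdnf, Spry2 (at 77.9 ± 5.07 against 55.3 ± 2.86) and Spry4 (29.1 ± 4.91 against 16.3 ± 3.10). Gdnf, also the member lower in UB than in NP, passed the filter only with the NP or SP libraries counted. Between NP and SP 7 of 9 were called at a background of 43.1%. NP had more Gdnf, Gfra1 and Etv4, and SP more Ret, Spry2, Spry4 and Dusp6. Spry4 was lower in NP by 2.09 (SE 0.16, adjusted p = 6.97e-06). E11.5 NP had the lowest mean Spry2, Spry4 and Dusp6 of the 9 groups. Etv5 was called between NP and SP without E11.5 SP replicate 4 (0.71, adjusted p = 0.00384, against 0.52, adjusted p = 0.0671), in the fit over all 36 libraries (adjusted p = 0.0344), with upper-quartile scaling (adjusted p = 0.0483) and with the replicate block (adjusted p = 0.041). The fit over all libraries did not call Gdnf there (adjusted p = 0.163).

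Among ESC-derived cells these differences between NP and the others were smaller for some members. Between eUB and iNP 5 of 8 were called, 4 of them higher in eUB, at a background of 52.2%. Etv4 (0.16, adjusted p = 0.201), Etv5 (0.31, adjusted p = 0.128) and Spry4 (0.21, adjusted p = 0.264) were not. The 1 lower in eUB was Gdnf, at 0.0743 to 0.390 there, which passed the filter only through the iNP libraries. Spry1 was barely called (0.27, SE 0.10, adjusted p = 0.0447) and was lost without iNP replicate 1 (0.21, adjusted p = 0.136), 3 (0.30, adjusted p = 0.0607) or 4 (0.25, adjusted p = 0.119), or eUB replicate 2 (0.26, adjusted p = 0.119), 3 (0.29, adjusted p = 0.0738) or 4 (0.26, adjusted p = 0.113). It was also lost in the fit over all 36 libraries, with no filter, upper-quartile scaling, quantile normalisation, edgeR, DESeq2 and the replicate block (adjusted p = 0.0506 to 0.377). Between eUB and iSP 7 of 8 were called, 6 higher in eUB, at a background of 64.7%. The 1 lower was again Gdnf, which passed the filter only through the iSP libraries. Between iNP and iSP 7 of 9 were called, all higher in iNP, at a background of 30.7%. Dusp6, which was lower in NP than in SP at E11.5, was higher in iNP than in iSP (0.52, SE 0.07, adjusted p = 0.000285). Spry2 (-0.03, adjusted p = 0.802) and Spry4 (-0.09, adjusted p = 0.589) stood level between iNP and iSP within their error, with SE of 0.08 and 0.12.

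With age fewer members changed. In NP 1 of 9 was called between E12.5 and E11.5, Spry2 (0.78, SE 0.14, adjusted p = 0.0169), where 6.34% of genes were called. In SP 2 were called at a background of 8.52%, Gdnf higher and Ret lower by 1.78 (SE 0.39, adjusted p = 0.0231). UB markers summed to 14.7 to 31.4 in E12.5 SP against 52.5 to 144 in E11.5 SP, and Isl1 read 0.335 to 2.60 against 4.73 to 94.7. Their part in the Ret change was not tested. In UB, with the reservation on its age labels, 3 of 9 were called at a background of 26.5%: Spry1 (0.54, SE 0.10, adjusted p = 0.00511), Etv5 (0.53, SE 0.13, adjusted p = 0.0179) and Spry2 (0.22, SE 0.07, adjusted p = 0.0472), all higher in E12.5. Most of these calls were fragile. Spry2 in NP was lost without E11.5 NP replicate 2 (0.76, adjusted p = 0.0691) or 3 (0.81, adjusted p = 0.0624) or E12.5 NP replicate 4 (0.79, adjusted p = 0.0574). Spry2 in UB was lost in 6 of the 8 fits that left out a library (adjusted p = 0.0684 to 0.119), the exceptions being E12.5 UB replicates 1 and 3, with changes of 0.17 to 0.26 over all 8. It was also lost with no filter (adjusted p = 0.0644), upper-quartile scaling (adjusted p = 0.133), quantile normalisation (adjusted p = 0.0832), edgeR (adjusted p = 0.0645), DESeq2 (adjusted p = 0.059) and the replicate block (adjusted p = 0.082). The fit over all 36 libraries called none of the 3 in UB (adjusted p = 0.061 for Etv5, 0.155 for Spry1 and 0.421 for Spry2). Etv5 in UB was lost without E11.5 UB replicate 2 (0.47, adjusted p = 0.0563) or E12.5 UB replicate 4 (0.49, adjusted p = 0.0503). Ret in SP was lost in 6 of 8 such fits (adjusted p = 0.06001 to 0.08304), the exceptions being E11.5 SP replicate 4 and E12.5 SP replicate 1, with changes of -1.54 to -2.22 over all 8. Etv4 in SP was called only without E11.5 SP replicate 4 (0.82, adjusted p = 0.0342), or in the fit over all 36 libraries (adjusted p = 0.0389). That fit also called Gfra1 in SP (-0.93, adjusted p = 0.0034) and Spry4 in NP (0.74, adjusted p = 0.0397), and DESeq2 called Gfra1 in SP (adjusted p = 0.041) and Etv5 in NP (0.48, adjusted p = 0.0491).

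Replicate 1 of E12.5 lay apart from the other replicates in several members and in the markers of its own cell type. Its NP markers summed to 1584 in NP (2400 to 2526 in the others), its SP markers to 1691 in SP (2610 to 2762) and its UB markers to 2160 in UB (3367 to 3576), or 0.638, 0.636 and 0.622 times the mean of the others. In NP it also held more UB markers (86.2 against 35.4 to 45.3) and more Ret (8.93 against at most 2.13). Etv5 was lower in it than in the other replicates in NP (89.3 against 141 to 173), SP (51.1 against 74.9 to 91.0) and UB (166 against 233 to 262). Gfra1 was also below the other replicates in all 3, at 147 in NP, 5.74 in SP and 381 in UB. As multiples of the mean of the others Etv5 was at 0.584 to 0.677 and Gfra1 at 0.449 to 0.746, beside the lower markers. Spry4 was above them in all 3, at 20.5, 74.1 and 30.2 against at most 9.93, 39.1 and 21.2. So were Spry2 (59.1, 156 and 71.1 against at most 44.6, 70.04 and 64.6) and Dusp6 (95.8, 135 and 187 against at most 48.9, 123 and 185), the last by little in UB. Spry1 was raised in NP and SP (219 and 195 against at most 89.5 and 64.7) but not in UB. Egr1 read 290, 1489 and 627 in these libraries against at most 86.2, 784 and 573 in the other replicates of each cell type. Without these libraries the age comparison called Etv5, Gfra1, Spry2 and Ret in NP (Etv5 0.66, adjusted p = 0.00549; Gfra1 0.50, adjusted p = 0.0403; Spry2 0.66, adjusted p = 0.00559; Ret -1.13, adjusted p = 0.0331), at a background of 17%. In UB it then called Gfra1 (0.50, adjusted p = 0.000153) beside Etv5, Spry1 and Spry2, at a background of 44%. What sets these libraries apart was not tested.

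**Figure D3:**
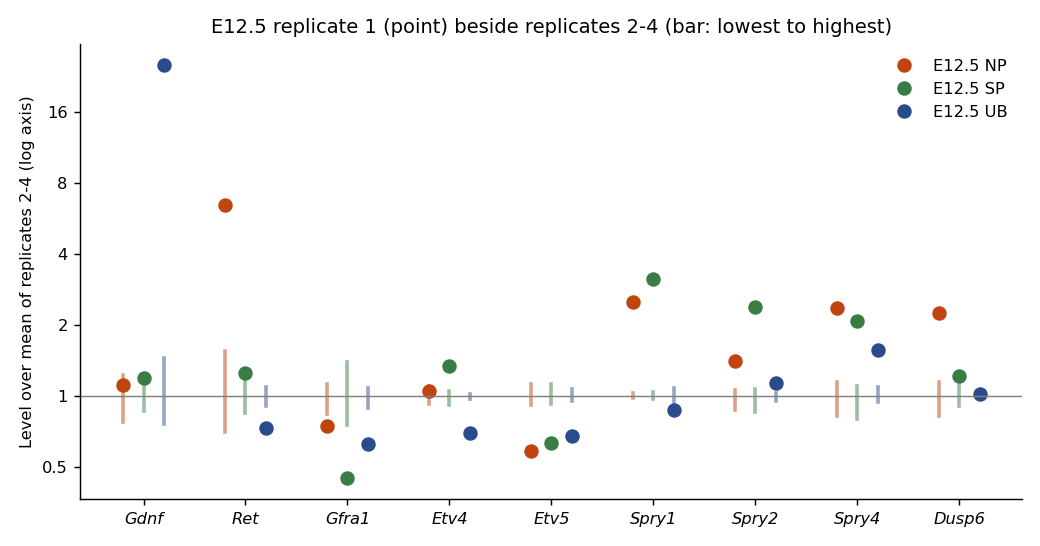
Level of each member in E12.5 replicate 1 (points) as a multiple of the mean of replicates 2 to 4 (log axis) for NP, SP and UB; bars run from the lowest to the highest of replicates 2 to 4. Etv5 and Gfra1 lie below the bars and Spry2, Spry4 and Dusp6 above them in all 3 cell types, and Gdnf in UB is 25.4 times the mean of the others.

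Divided by exon length, levels can be set between genes. In E11.5 UB the order was Etv4 at 81.5 ± 4.34 normalised CPM per kb, Gfra1 at 78.7, Spry1 at 66.3, Dusp6 at 62.5, Ret at 53.8, Etv5 at 37.5, Spry2 at 26.5, Spry4 at 3.43 and Gdnf at 0.423. In eUB Dusp6 at 79.7 and Gfra1 at 78.7 led, followed by Ret at 69.9, Spry1 at 66.0 and Etv4 at 57.5. In E11.5 NP the order was Etv4 (43.5), Gfra1 (25.4), Spry1 (24.1), Etv5 (23.4) and Gdnf (19.5), and Ret was at 0.640. In iNP Spry1 (54.7) and Etv4 (51.2) led, Dusp6 stood at 37.0 and Gfra1 at 12.8. Spry4 was under 10 in each group, from 1.28 in E11.5 NP to 9.51 in E12.5 SP.

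Ordered over the 9 groups, most neighbours were not separated. Of 8 neighbouring pairs of groups per gene, libraries overlapped in 8 for Spry4, 7 for Spry2, 6 for Gdnf, Etv4 and Etv5, 5 for Ret, Gfra1 and Spry1, and 4 for Dusp6. The smallest 2-sided exact permutation p that 4 against 4 libraries can give is 0.0286, and no pair passed adjustment over all pairs (lowest adjusted p = 0.103). For Dusp6 the libraries of the 3 bud groups, at means of 249.7, 196 and 184, overlapped neither each other nor those of other groups. E11.5 and E12.5 UB missed overlap narrowly (188 against 187), and limma did not call them different (-0.09, adjusted p = 0.217). For Gfra1 the gaps lay between bud and NP, between NP and iNP, and between iNP and the 3 stromal groups.

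Across the 36 libraries the closest pattern to Ret among 16001 genes was that of Rnf128, Cldn4 and Krt18 (Pearson r = 0.977, 0.976 and 0.976), epithelial genes in the case of the last 2. Gdnf was nearest to Bmper, Syt7 and Maf (0.962, 0.959 and 0.958) and Gfra1 to Padi2, Slain1 and Mbp (0.986, 0.984 and 0.978). Etv4 and Etv5 were both nearest to Tgfa (0.945 and 0.91), a ligand of the EGF receptor. Spry2 was nearest to Egr1 (0.881) and then to Spry4 (0.859), Dusp6 to Rprm (0.945), Spry1 to Mfsd3 (0.879) and Spry4 to Rhoj (0.875). Among members the highest correlations were Gfra1 with Etv4 (0.91) and Etv4 with Etv5 (0.901), and the lowest was Gdnf with Ret (-0.757). These libraries share cell types and groups, so the values describe the groups as much as the genes.

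Other genes of the pathway were read from fixed lists, by comparison with E11.5 cells. Their counts stand beside 60.5% of all genes called in eUB, 64.7% in iNP and 67.6% in iSP, and their medians beside 0.02, 0.07 and 0.04 over all genes. Of 22 regulators of Gdnf, transcription factors of the mesenchyme and the Slit, Robo and nephronectin axes, 17 were lower and 4 higher in iNP (95.5% called, median -0.97). Foxc1 fell by 3.25 (SE 0.13, adjusted p = 7.91e-08), from 217 ± 12.01 to 22.1 ± 4.399. In iSP 11 were lower and 4 higher (68.2% called, median -0.29), with Foxc1 again the largest fall (-5.25, SE 0.22, adjusted p = 1.31e-07). In eUB, where most of them are low, 8 of 17 tested were lower and 6 higher (82.4% called, median -0.08). Fat4 was the largest fall (-2.71) and Itga8 the largest rise (2.67).

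Of 11 regulators of Ret, such as Gata3 and the retinoic acid receptors, 6 were higher and 2 lower in iNP (72.7% called, median 0.47). Rara, a receptor of retinoic acid, fell by 0.64 (SE 0.15, adjusted p = 0.00414). In iSP 5 were higher and 3 lower (72.7% called, median 0.67), from Emx2 at 4.29 (SE 0.31) to Aldh1a2, which makes retinoic acid, at -2.08 (SE 0.14). In eUB 4 were higher and 3 lower (63.6% called, median 0.02), with Rara the largest fall (-1.35, SE 0.11, adjusted p = 6.4e-06). The largest rise was Sox8 at 1.89. Since the study names Sox8 in places as the gene of the reporter on which eUB were sorted, this value is a description only. Sox8 and Sox9, which the labels name, are both in this list. The eUB count, share and median therefore include the gene of the sort.

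Of 8 genes of the bud tip, 4 were lower and 2 higher in eUB (75% called, median -0.33). Kitl fell by 0.85 (SE 0.08, adjusted p = 1.82e-05), from 245 ± 14.99 to 135.5 ± 13.0, and Cxcr4 rose by 1.41 (SE 0.14, adjusted p = 1.91e-05). The tip gene Wnt11, a target of RET, did not pass the test (-0.11, SE 0.13, adjusted p = 0.511), at 69.5 ± 4.55 in eUB and 75.9 ± 14.1 in E11.5 UB. In iNP 3 were higher and 2 lower (62.5% called, median 0.07), from Mmp14 at 1.20 to Myb at -1.58, and in iSP 2 higher and 5 lower (87.5% called, median -0.62), from Met at 1.06 to Kitl at -2.58.

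Of 16 further ERK targets and inhibitors, 8 were higher and 4 lower in iNP (75% called, median 0.52). Ier3 rose by 3.16 (SE 0.18, adjusted p = 5.96e-07), Egr1 by 2.21 (SE 0.23) and Fos by 2.27 (SE 0.15), whereas Epha2 fell by 1.79 (SE 0.31). In iSP 6 were higher and 7 lower (81.2% called, median -0.10), from Il17rd at 1.86 to Epha2 at -4.04 (SE 0.26, adjusted p = 1.35e-06). In eUB 4 were higher and 5 lower of 15 tested (60% called, median 0.05), from Fos at 2.99 to Fosl1 at -2.60 (SE 0.21, adjusted p = 5.18e-06). Members of this list therefore moved both ways within each cell type.

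Of 25 adaptors and kinases, 2 were higher and 8 lower of 23 tested in eUB, 5 and 13 of 24 in iNP and 2 and 17 of 24 in iSP (medians -0.11, -0.34 and -0.49). The shares called were 43.5%, 75% and 79.2%. The largest fall in all 3 was Grb10, an imprinted adaptor that binds receptor tyrosine kinases. It was at 1001 ± 68.6 in E11.5 UB and 0.866 ± 0.339 in eUB (-9.09, SE 0.13, adjusted p = 1.8e-10). In NP it went from 2135 ± 163 to 155 ± 30.1 (-3.80, SE 0.15), and in SP from 1605 ± 163 to 132 ± 21.9 (-3.61, SE 0.13). The largest rises were Gab1 in eUB (1.36, SE 0.07), Dok5 in iNP (3.07, SE 0.10) and Map2k1 in iSP (0.69, SE 0.13).

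Of 9 FGF ligands and receptors, Fgf9 was the largest rise in each, by 1.55 (SE 0.11) in eUB, 2.65 (SE 0.19) in iNP and 1.10 (SE 0.10) in iSP. FGF9 protein was also an agent of the culture media. The largest falls were Fgfr3 in eUB (-2.56, SE 0.24), Fgf10 in iNP (-2.59, SE 0.18) and Fgfr3 in iSP (-2.53, SE 0.29). In counts 1 was higher and 2 lower of 7 tested in eUB, 2 and 4 of 8 in iNP, and 1 and 5 of 6 in iSP (medians 0.05, -0.46 and -1.20). Ligands related to GDNF were low throughout. Gdf15 rose in eUB, from 3.60 ± 0.682 to 13.7 ± 3.02 (1.67, SE 0.16), and fell in iNP (-1.97, SE 0.17) and iSP (-1.66, SE 0.16), and Artn fell in eUB (-0.41, SE 0.14) and rose in iNP (0.72, SE 0.13). Of the other co-receptors Gfra3 rose in iNP (1.03, SE 0.21) and fell in iSP (-0.58, SE 0.21), Gfra2 fell in iNP (-0.71, SE 0.18), and none passed the filter on low values in the eUB comparison.

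**Figure D4:**
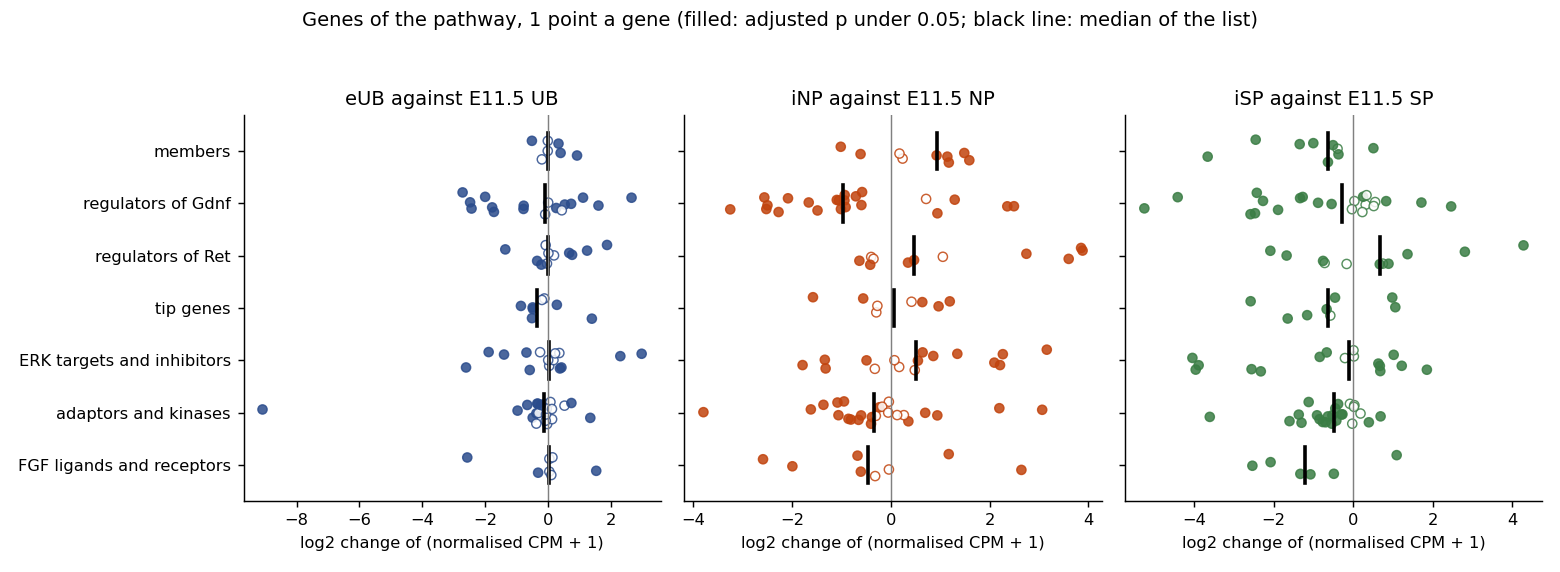
Change on the log2(normalised CPM + 1) scale of the members and of the genes of 6 pathway lists in eUB, iNP and iSP against E11.5 cells, 1 point a gene, filled where it passed the test, with the list median as a black line and a scale of its own in each panel; Ret is left out of the UB panel. The regulators of Gdnf lie mostly below 0 in iNP (median -0.97), and the point at -9.09 in eUB is Grb10.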

How the data were processed

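RNA of 36 sorted samples, 4 in each of 9 groups, was sequenced from stranded mRNA libraries. Per the paper's methods, reads were trimmed with Cutadapt, aligned with STAR, filtered and normalised with edgeR (the counting program is not given in the sources used here), and the submitters' notes name GRCh38, although all gene identifiers are from mouse. The values deposited by the authors are a normalised signal per gene, counts divided by effective library size from edgeR, and whole reads were recovered from 100% of values within 1e-06. A second table with the authors' means, fold changes and p-values was not used. Groups follow the sample titles. Member coordinates come from GENCODE M21 (GRCm38), which holds 99.5% of the 22761 genes.

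Each comparison was fitted with limma 3.58.1 (R 4.3.3) on log2(signal + 1), in the 8 libraries concerned, over genes with at least 1 in at least 4 of them, with a trend and Benjamini-Hochberg adjustment at 0.05. Differences of changes were fitted as interactions. Alternatives were a fit of all 36 libraries, a pseudocount of 0.1, no filter, upper-quartile scaling, quantile normalisation, edgeR 4.0.16 and DESeq2 1.42.0 on the recovered reads, a replicate block, E12.5 in place of E11.5 cells in the interactions, and leaving out each library. On recovered reads edgeR called 8520 genes in eUB against E11.5 UB, where limma called 8445. On data simulated for that comparison over 13758 genes, 100% of 200 changed genes were recovered and 0.0811% of the others were called. The planted changes were at least 1 on the log2 scale, in genes with ample reads and at a fixed dispersion. Members called there changed by less, and 60.5% of genes were called in the real data. The simulation therefore does not give the power or error for these members. Figures and other tables were made with Python 3.11.15.

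Replicates are separate pools of embryos or batches of differentiation. Same-numbered samples did not deviate together in every pair of any comparison (r over 0.1), so the numbers were not used as pairs. In the study iNP and iSP were gated from the same cultures, and NP and SP from the same kidney suspensions. The paper does not state whether same numbers shared a pool, and this rule cannot show that they did not. For E11.5 NP against SP the mean r of same numbers was 0.191, and cell types at E12.5 were not compared in this way. The floor of 3 reads covers counting error only, whereas SD and SE come from the spread between libraries. The 9 members and the gene lists were chosen with earlier results of these data known. Named beside the members are, of each list and each comparison with E11.5 cells, the called genes of largest rise and fall, the markers, and the 3 genes most alike each member, some of which are not reported here. Isl1, Wnt11, and Egr1 and Fos outside that rule, were chosen after their values were seen.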

Additional observations from a re-analysis of the deposited data

Results flagged for a closer look

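Of 81 sets of 4 libraries (9 genes in 9 groups), 12 held a library whose gap to the next exceeded Dixon's critical share of the range, where chance gives about 1 in 20. In 6 of them it was replicate 1 of an E12.5 group. Those were Gdnf at 22.88 and Etv4 at 194.7 in UB, Ret at 8.926 and Spry1 at 218.7 in NP, and Spry1 at 195.3 and Spry2 at 156.5 in SP, all in normalised CPM. Etv4 was low in that library and the other 5 were high. Among ESC-derived cells the libraries were iSP replicate 2 for Ret (1.075, high), eUB replicate 4 for Ret (419.9, low) and eUB replicate 1 for Spry2 (117.4, high). They also were iSP replicate 4 for Etv5 (22.71, low), and iNP replicate 1 for Etv4 (142.3) and Dusp6 (111.5), both low. The 81 sets share their libraries and are not independent, and the rule was not run over all genes. The number flagged is therefore no result about the members.

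The change from E11.5 to ESC-derived cells differed between cell types, by an interaction term, in 19 of 25 tests of members. Of all genes 47.1% were called between UB and NP, 47.4% between UB and SP and 29.3% between NP and SP. Between UB and NP the differences on the log2 scale were 1.0131 for Gfra1, -0.7438 for Etv4, -1.1738 for Spry1, -1.0784 for Spry4 and -1.2482 for Dusp6. Between UB and SP they were 1.462 for Gdnf, 1.0012 for Gfra1, 1.1565 for Etv5, -0.5085 for Spry1, 1.3016 for Spry2, 0.9148 for Spry4 and 0.9755 for Dusp6. Between NP and SP they were 1.8387 for Gdnf, 4.5865 for Ret, 1.5201 for Etv5, 0.6653 for Spry1, 1.5139 for Spry2, 1.9932 for Spry4 and 2.2237 for Dusp6. The 3 contrasts share their groups. Of the 19, that of Gdnf between UB and SP is no stable result: Gdnf did not pass the filter in eUB against E11.5 UB, entered this contrast through the SP libraries, and was not called with a pseudocount of 0.1 (0.40, adjusted p = 0.515).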

How the results depend on the processing

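Of 2099 values of 152 member results under the alternatives, 1986 kept direction and side of the threshold, 76 lost the call, 36 gained it and 1 turned direction, and 106 results kept both throughout. The cause was not tested. The one that turned was Gfra1 between UB and SP with E12.5 in place of E11.5 cells (-0.2627). That setting called 2 members between UB and NP and 4 between UB and SP, at backgrounds of 30% and 42.2%. It called 4540 genes in place of 7143 between UB and NP. The fit of all 36 libraries called 2 members in eUB and 5 in iSP against E11.5. Between ages it called 0 in UB and 2 in NP, with 1572 genes for NP (850 in the main fit of 8 libraries) and 3141 for SP (1162). In eUB it called 8146 of 16001 genes. The main fits called 60.5% of genes in eUB and 67.6% in iSP, and between ages 26.5% in UB and 6.34% in NP. DESeq2 called 2 members and 1912 genes in NP and 2097 genes in SP between ages.

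Leaving out 1 library gave 3 to 7 members in iNP against E12.5 NP, 3 to 5 in eUB against iNP and, between ages, 1 to 4 in UB, 0 to 4 in NP and 1 to 3 in SP. Between ages the genes called then ran from 2332 to 5982 in UB (3648 with all), 147 to 2249 in NP and 392 to 2889 in SP, the highest each without E12.5 replicate 1. With all libraries 44.3% of genes were called in iNP against E12.5 NP and 52.2% in eUB against iNP.

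With the replicate block 2365 genes were called in UB between ages. It called 5 members in iNP against E12.5 NP (Spry4 gained, adjusted p = 0.0466) and 8 in E11.5 NP against SP (Etv5 gained). It called 2 in UB between ages (Spry2 lost) and 4 in eUB against iNP (Spry1 lost), and changed no other member call. The main fits called 44.3%, 43.1%, 26.5% and 52.2% of genes in these comparisons, in that order. Upper-quartile scaling moved the median of all genes from 0.00019 to -0.12 in eUB against iNP, and the genes higher and lower from 3696 and 3769 to 3170 and 4456. In UB between ages it moved them from 1951 and 1697 to 1556 and 2301. Levels near the floor of 3 reads, such as Gdnf in eUB, are limited by depth.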
